A study of Mus musculus with 2 samples.

Results

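The genes described here are 10 antioxidant and metallothionein genes, picked by symbol, with earlier results of these data known. They are the NRF2 targets Hmox1, Nqo1, Gclc, Gclm and Txnrd1, the superoxide dismutases Sod1 and Sod2, catalase (Cat), and the metallothioneins Mt1 and Mt2. All 10 were found among the 23183 gene symbols of the series. The series holds 2 RNA-seq libraries, 1 per condition, both from mouse cavernous endothelial cells (MCECs) in culture. The HG+HBS library came from cells in high glucose that received HEPES-buffered saline, and the HG+PC-NVs library from cells in high glucose that received pericyte-derived extracellular vesicle-mimetic nanovesicles. The labels give 5 days of glucose for both libraries, while the study's methods state a shorter exposure for cultured MCECs, with PC-NVs present for the last part of it. Per those methods, the cells were primary cultures of early passage, grown out of penile tissue of adult male C57BL/6J mice, held in serum-containing medium with heparin and VEGF and serum-starved before the glucose exposure. How many animals or dishes gave each library is not given in the sources used here. No culture in normal glucose is part of these files. The question put by the comparison is which transcripts differ between cells with and without PC-NVs in high glucose.

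High glucose is known to raise the formation of superoxide in endothelial cells. Superoxide dismutases turn superoxide into hydrogen peroxide, Sod1 in the cytosol and Sod2 in the mitochondrial matrix, and catalase and peroxidases break the peroxide down. NRF2 (encoded by Nfe2l2) is a transcription factor that KEAP1 holds at a low level until oxidants or electrophiles release it, after which it switches on genes of glutathione synthesis, thioredoxin recycling, quinone reduction and heme breakdown. Metallothioneins are small cysteine-rich proteins that bind zinc and copper and scavenge oxidants. Their genes respond to zinc through the factor MTF1 at metal response elements, and also to glucocorticoids and inflammatory cytokines. Sod2 is a well-known target of NF-kB.

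Both metallothionein genes and Sod2 were higher in HG+PC-NVs by more than 1.5-fold, and the other 7 genes lay within 1.5-fold. Sod2 was 6.19-fold higher, Mt2 3.97-fold and Mt1 2.21-fold on the log2(FPKM + 1) scale. Among the NRF2 targets the log2 ratios ran from -0.02 to 0.31, with a median of 0.05 over the 5 genes. None of the 10 genes was lower by more than 1.5-fold. Over the 11785 genes whose log2 values averaged 1 or more, 5.33% were more than 1.5-fold higher and 3.57% more than 1.5-fold lower, so that 3 of 10 stands beside 5.33% and 0 of 10 beside 3.57%. A fold above 2 was passed by Sod2, Mt2 and Mt1, against 2.38% of all genes. A fold above 4 was passed by Sod2, against 0.636% of all genes. The median log2 ratio was 0.16 over the 10 genes and -0.01 over all genes, of which the middle 50% lay between -0.17 and 0.16. Each condition has 1 library, so the spread between cultures is not known and no fold change here has a replicate check.

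**Figure D1:**
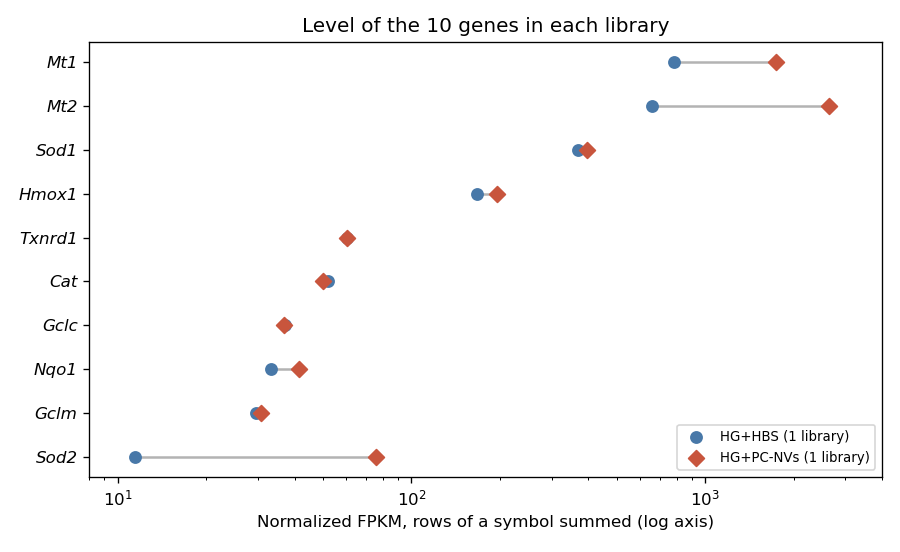
Normalized FPKM (log axis) of each of the 10 genes in the HG+HBS library (circles) and the HG+PC-NVs library (diamonds), with a grey line joining the values of 1 gene. Sod2, Mt1 and Mt2 have long lines, from 11.4 to 75.9, 784 to 1737 and 661 to 2631 FPKM, while the points of the other 7 genes nearly coincide.

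The HG+HBS library held about 13400000 fragments and the HG+PC-NVs library about 11700000, an estimate from the steps between low values, since the files hold no counts. The labelled cell type was compared with a list of 12 endothelial markers, of which 8 were below 1 FPKM in both libraries. Kdr stood at 0.518 and 0.438 FPKM, Vwf at 0.158 and 0.128, and Pecam1 at 1.05 and 0.938 (HG+HBS first), while Cdh5, the endothelial cadherin, had 5.05 and 5.73. The highest of the list were Esam, at 17.4 and 11.7 FPKM, and Egfl7, at 9.48 and 8.57. The 8 fibroblast markers together summed to 2004 and 2326 FPKM against 35.4 and 28.6 for the endothelial list, with Thy1 at 549 and 412 FPKM. Of the 8, 7 were lower with PC-NVs by any amount (median log2 ratio -0.28), among them Col1a2 at 312 and 198 FPKM, and the sum was higher through Dcn, at 623 and 1283 FPKM. The values below are therefore those of a culture with little RNA of endothelial markers, and in bulk RNA a smaller number of cells of a type cannot be told apart from less RNA per cell.

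Mt1 and Mt2 lie next to each other in the metallothionein cluster, and the stretches ahead of their starts are shown because these 2 genes were higher together, along with that of Sod2 for contrast. The sequences are the 250 bases before the RefSeq start on GRCm38.p6, all on the plus strand, at chr8:94172368-94172617 for Mt2, chr8:94178839-94179088 for Mt1 and chr17:13007589-13007838 for Sod2. The Sod2 stretch and the last bases of the Mt1 stretch fall inside the wider gene bounds that GENCODE gives. Capitals mark a loose metal response element pattern, TGCNCNC with any base at each N, read on both strands, in Mt2 and Mt1. In Sod2 they mark a loose NF-kB pattern, GGG and CC with 5 bases of any kind between them, also on both strands.
Mt2: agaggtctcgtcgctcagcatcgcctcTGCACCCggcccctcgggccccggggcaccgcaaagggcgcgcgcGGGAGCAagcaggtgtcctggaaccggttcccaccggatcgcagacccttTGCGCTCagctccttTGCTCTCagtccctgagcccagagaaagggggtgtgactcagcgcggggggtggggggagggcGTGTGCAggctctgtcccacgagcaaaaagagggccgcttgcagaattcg
Mt1: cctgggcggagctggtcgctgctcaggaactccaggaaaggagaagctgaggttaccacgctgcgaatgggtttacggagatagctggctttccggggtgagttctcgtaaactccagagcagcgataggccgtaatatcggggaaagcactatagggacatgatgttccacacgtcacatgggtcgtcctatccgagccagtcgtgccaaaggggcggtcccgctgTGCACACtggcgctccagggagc
Sod2: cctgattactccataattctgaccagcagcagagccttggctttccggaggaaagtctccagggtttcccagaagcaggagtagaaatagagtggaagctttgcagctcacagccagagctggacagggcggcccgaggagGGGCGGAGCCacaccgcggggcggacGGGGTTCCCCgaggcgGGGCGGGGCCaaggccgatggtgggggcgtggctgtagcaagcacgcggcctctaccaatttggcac

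The Mt2 stretch held 5 matches to the loose metal response element pattern, which start 223, 178, 128, 113 and 50 bases before the RefSeq start. Of 32851 RefSeq promoters of the same length, 44.4% held at least 1 match and 0.344% held at least 5. The Mt1 stretch held 1 match, 23 bases before its RefSeq start. Such a count depends on the start that is used and on the length of the window. When the windows were taken 50 bases past the start, to 300 bases, there were 6 matches for Mt2 and 3 for Mt1. Of all promoters, 0.225% held at least 6 and 7.10% at least 3 in windows of that size. The Sod2 stretch held no match to that pattern. It held 3 matches to the loose NF-kB pattern, 109, 83 and 67 bases before the start, a number that 10.7% of all promoters reached. Mt1 held 2 overlapping matches to the NF-kB pattern and Mt2 held 0. The antioxidant response element core TGACNNNGC, at which NRF2 binds, was present in 10.2% of all promoters. It was found once each in the stretches of Gclm, Sod1 and Mt2, and in 1 of 3 annotated starts of Txnrd1. It was not in those of Cat, Nqo1, Mt1 or Sod2, nor in their windows of 300 bases. This absence holds only for the starts and windows used. Sequence outside them was not searched, so whether these genes have such an element elsewhere was not tested. The match in Gclm overlaps one to the loose metal response element pattern. Promoters of 8 of the 10 genes were in the RefSeq table. A match of letters is a description of the sequence and not evidence that a factor binds there.

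Mt1 and Mt2 were already among the abundant transcripts of the culture with HBS. Mt2 (ENSMUSG00000031762, chromosome 8, 94172664 to 94173568) had 661 FPKM with HBS and 2631 FPKM with PC-NVs, a log2 ratio of 1.99 on the log2(FPKM + 1) scale. Mt1 (ENSMUSG00000031765, chromosome 8, 94179082 to 94180327) had 784 and 1737 FPKM, a log2 ratio of 1.15. The quotient of the FPKM values was 3.98 for Mt2, with a 95% Wilson interval for counting error of 3.83 to 4.13, from about 3437 and 11904 fragments. For Mt1 it was 2.22, with an interval of 2.15 to 2.29, from about 5766 and 11121 fragments. The 4-fold line thus runs through the interval of Mt2. These intervals cover counting error only and not the difference between cultures.

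By level among all symbols, Mt2 moved from rank 122 in HG+HBS to rank 16 in HG+PC-NVs, and Mt1 from rank 104 to rank 40. Their order reversed, since the FPKM of Mt2 was 0.843 times that of Mt1 with HBS and 1.51 times with PC-NVs. Together they made up 0.277% of the summed FPKM with HBS and 0.752% with PC-NVs. By log2 ratio they ranked 76 (Mt2) and 219 (Mt1) among the 11785 genes. The coding sequences of Mt1 and Mt2, of 183 nt each, were identical at 79.2% of aligned positions, and the longest run that their main transcripts share exactly was 20 nt. How the counting treated reads that match more than 1 place is not given in the sources used here. Mt2 also overlaps an antisense gene, Gm45774. The library kit keeps the strand, but whether strand was used in counting is not given.

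The higher level in HG+PC-NVs extended to Mt3 but not to the nearest genes outside the family. Mt3, another gene of the cluster known chiefly from brain, stands 26.5 kb before Mt1 and had 7.61 FPKM with HBS and 22.5 FPKM with PC-NVs, 2.73-fold higher. It rests on about 45 and 116 fragments, and the interval of its FPKM quotient ran from 2.10 to 4.17. Mt4, which is known from stratified epithelia, was below the filter on low values, at 0.345 and 0.412 FPKM. The nearest other genes within 100 kb were Bbs2, with a log2 ratio of -0.33 (4.11 and 3.07 FPKM), and Nup93, a nuclear pore subunit, with 0.21 (35.3 and 41.1 FPKM).

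**Figure D2:**
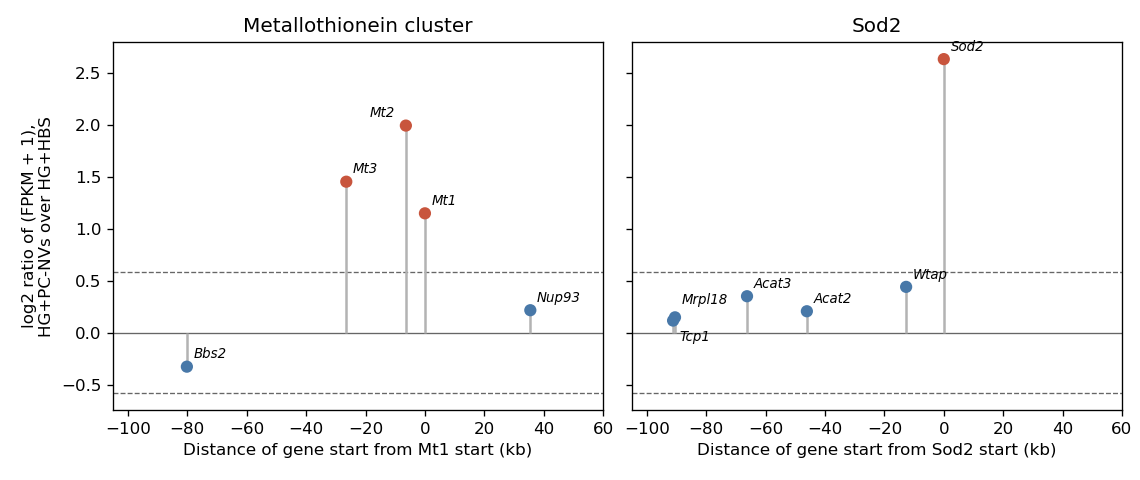
Log2 ratio (HG+PC-NVs over HG+HBS, FPKM + 1) against the distance of each gene's start from that of Mt1 (left) or Sod2 (right) in kb, for genes within 100 kb that pass the filter on low values, with dashed lines at 1.5-fold. Mt1, Mt2 and Mt3 (1.15, 1.99 and 1.45) and Sod2 (2.63) stand above the dashed line, and the 7 other genes stay between the dashed lines.

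Zinc handling was described with a list of 17 genes, of which 14 passed the filter. Of these, 2 were more than 1.5-fold higher (Mt3 and Slc39a14), 0 were lower and 12 lay within 1.5-fold, with a median log2 ratio of 0.17. The shares of all genes were 5.33% higher and 3.57% lower. Slc39a14, a zinc and iron importer that is known to respond to interleukin-6, had 17.5 FPKM with HBS and 46.8 FPKM with PC-NVs, 2.59-fold higher. Mtf1, the metal-sensing activator of metallothionein genes, had 5.06 and 5.96 FPKM, a log2 ratio of 0.20. Slc30a1, a zinc exporter and a classical MTF1 target, had 3.91 and 4.07 FPKM, a log2 ratio of 0.05. Slc30a1 rests on about 274 and 249 fragments.

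Sod2 showed the largest log2 ratio of the 10 genes. Sod2, the manganese superoxide dismutase of mitochondria (ENSMUSG00000006818, chromosome 17, 13006846 to 13040063), had 11.4 FPKM with HBS and 75.9 FPKM with PC-NVs. The log2 ratio was 2.63, rank 42 of 11785. The FPKM quotient was 6.64, with an interval for counting error of 6.19 to 7.13, from about 897 and 5188 fragments. It had the lowest level of the 10 genes in HG+HBS and stood between Txnrd1 and Hmox1 in HG+PC-NVs. In rank among all symbols it moved from 5840 to 1086. Around it, 5 other genes within 100 kb passed the filter, and their log2 ratios ran from 0.12 to 0.44. The nearest of them, Wtap, starts 12.7 kb before Sod2 and had 18.6 FPKM with HBS and 25.6 FPKM with PC-NVs.

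Sod1, the copper and zinc enzyme of the cytosol (ENSMUSG00000022982, chromosome 16, 90220754 to 90226329), was far more abundant and nearly level. It had 368 FPKM with HBS and 395 FPKM with PC-NVs, a log2 ratio of 0.10, which became -0.14 after quantile normalization of the libraries. Sod1 was 32.2 times the level of Sod2 with HBS and 5.20 times with PC-NVs. Cat, the peroxisomal catalase that breaks down hydrogen peroxide (ENSMUSG00000027187, chromosome 2, 103453849 to 103485160), had 51.8 and 50.2 FPKM, a log2 ratio of -0.04. The interval of its FPKM quotient, 0.855 to 1.10, includes equality.

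Sod2 was read beside a list of 4 related genes. Sod3, the secreted superoxide dismutase of the matrix, was 1.88-fold higher, with 153 FPKM with HBS and 288 FPKM with PC-NVs, and was the 1 gene of the 4 past 1.5-fold. Ccs, the copper chaperone that loads Sod1, had 39.6 and 30.0 FPKM, a log2 ratio of -0.39. Atox1, another copper chaperone, had 219 and 297 FPKM, a log2 ratio of 0.44. The median log2 ratio of the 4 was 0.03. Of all genes, 5.33% were higher and 3.57% lower by more than 1.5-fold.

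The 5 NRF2 targets stood close to the same level in both libraries. Hmox1, heme oxygenase 1 (ENSMUSG00000005413, chromosome 8, 75093621 to 75100589), had 167 FPKM with HBS and 196 FPKM with PC-NVs, a log2 ratio of 0.23. Nqo1, a quinone reductase (ENSMUSG00000003849, chromosome 8, 107388225 to 107403206), had 33.4 and 41.5 FPKM, a log2 ratio of 0.31. The intervals for counting error of their FPKM quotients were 1.12 to 1.23 and 1.12 to 1.38, both above 1, so these small differences exceed counting error but have no replicate check.

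Gclc and Gclm encode the catalytic and the modifier subunit of glutamate-cysteine ligase, the first step of glutathione synthesis. Gclc (ENSMUSG00000032350, chromosome 9, 77754535 to 77794485) had 37.2 FPKM with HBS and 36.7 FPKM with PC-NVs, a log2 ratio of -0.02. Gclm (ENSMUSG00000028124, chromosome 3, 122245557 to 122270732) had 29.5 and 30.7 FPKM, a log2 ratio of 0.05. The level of Gclc was 1.26 times that of Gclm with HBS and 1.20 times with PC-NVs. Txnrd1, cytosolic thioredoxin reductase (ENSMUSG00000020250, chromosome 10, 82833951 to 82897712), had 60.5 and 60.1 FPKM summed over 4 rows, a log2 ratio of -0.01. Its highest row held 53.2 and 52.8 FPKM and carried most of that sum. The intervals of the FPKM quotients of Gclc (0.921 to 1.06), Gclm (0.901 to 1.20) and Txnrd1 (0.929 to 1.06) all include equality. A quotient of 1.5 lies outside each of them.

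On the list of 9 NRF2 regulators 7 were higher and 2 lower by any amount, with a median log2 ratio of 0.22, above the middle 50% of all genes. By more than 1.5-fold 1 was higher and 0 lower, beside 5.33% and 3.57% of all genes. Nfe2l2 itself had 228 FPKM with HBS and 256 FPKM with PC-NVs, a log2 ratio of 0.17. Keap1 had 20.7 and 19.9 FPKM, a log2 ratio of -0.05, and the repressor Bach1 had 8.32 and 8.48 FPKM, a log2 ratio of 0.03. Maff, a small MAF partner of NRF2, was the gene past 1.5-fold, with 9.54 and 15.7 FPKM. The other small MAF partners Mafg and Mafk had log2 ratios of 0.41 and 0.33, and Nfe2l1, a relative of NRF2, had 0.35.

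Beyond the 10 genes, 8 further lists of 98 genes were described, chosen with earlier results of these data known. Of their 87 genes above the filter, 14 (16.1%) were more than 1.5-fold higher, 5 (5.75%) lower and 68 within 1.5-fold. For all genes the shares were 5.33% and 3.57%. The glutathione list held differences in both directions. Of its 19 genes above the filter, 3 were higher and 3 lower, with a median log2 ratio of 0.00. Slc7a11, the cystine importer that feeds glutathione synthesis and is known both as an NRF2 and as an ATF4 target, had 7.08 FPKM with HBS and 29.4 FPKM with PC-NVs, 3.76-fold higher. Glrx, glutaredoxin, had 65.8 and 193 FPKM, 2.91-fold higher. Gsr, glutathione reductase, had 10.8 and 18.1 FPKM, 1.63-fold higher. The glutathione transferases Gsta4 and Gsta3 and the secreted peroxidase Gpx3 were the lower ones. Gsta4 had 41.5 and 15.0 FPKM (log2 ratio -1.41), Gsta3 48.9 and 21.9 FPKM (-1.13) and Gpx3 31.3 and 18.9 FPKM (-0.70). Reads of Gsta3 may be shared with other members of its family.

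**Figure D3:**
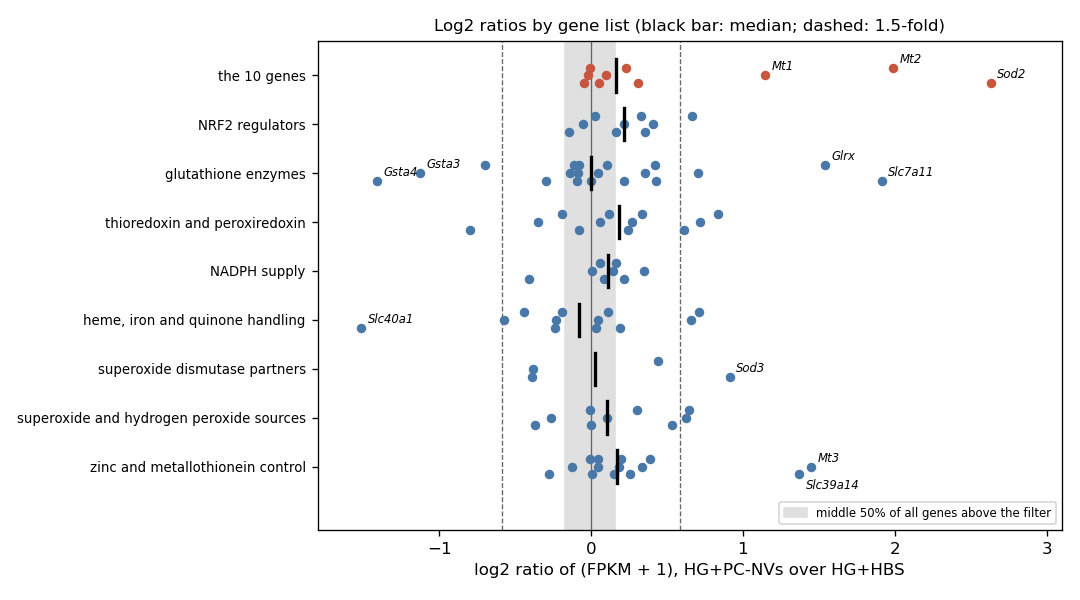
Log2 ratio (HG+PC-NVs over HG+HBS, FPKM + 1) of each gene above the filter on low values, by list, with the list's median as a black bar, the middle 50% of all genes as a grey band from -0.17 to 0.16 and dashed lines at 1.5-fold. Most points lie within the dashed lines, and Sod2, Mt2, Slc7a11, Glrx, Mt3, Slc39a14 and Mt1 lie farthest to the right.

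Among the 12 thioredoxin and peroxiredoxin genes 3 were higher and 1 lower, beside 5.33% and 3.57% of all genes. Their median log2 ratio was 0.18. Prdx5, a peroxiredoxin of mitochondria, peroxisomes and cytosol, had 323 FPKM with HBS and 577 FPKM with PC-NVs, 1.79-fold higher. Prdx6 had 72.6 and 119.9 FPKM, 1.64-fold higher. Srxn1, sulfiredoxin, an NRF2 target outside of the 10, had 62.7 and 96.3 FPKM, 1.53-fold higher, and was under 1.5-fold after quantile normalization or upper-quartile scaling. Txnip, a thioredoxin-binding protein whose gene is known to respond to glucose, was the lower one, with 67.4 and 38.4 FPKM (log2 ratio -0.80). All 8 genes of NADPH supply lay within 1.5-fold, with a median log2 ratio of 0.11. G6pdx, the entry to the pentose phosphate pathway, had 62.7 and 69.3 FPKM.

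The list of heme, iron and quinone handling held 2 higher and 1 lower of 12 genes, beside 5.33% and 3.57% of all genes. Its median log2 ratio was -0.08. Fth1, the ferritin heavy chain, had 5516 FPKM with HBS and 9016 FPKM with PC-NVs, 1.63-fold higher as deposited. The log2 ratio of Fth1 was 0.00 when the libraries were quantile normalized. Fth1 ranked 4 by level among all symbols in both libraries, and quantile normalization gives equal ranks equal values. That setting therefore could not show a difference for Fth1. Ftl1, the ferritin light chain, had 5806 and 4952 FPKM, a log2 ratio of -0.23. Abcc1, an exporter of glutathione conjugates, had 17.7 and 28.5 FPKM, 1.58-fold higher. Slc40a1, the iron exporter ferroportin, had 12.4 and 3.69 FPKM (log2 ratio -1.51), the lowest ratio on these lists.

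Markers of other cells moved with these genes in part. Of the 8 macrophage markers, which summed to 305 FPKM with HBS and 525 FPKM with PC-NVs, 4 were higher and 4 lower by any amount. Cd14 went from 36.6 to 252 FPKM and Adgre1 from 7.44 to 42.5 FPKM, while Lyz2 had 212 and 193 FPKM, Cd68 36.2 and 26.3, and Csf1r 8.39 and 6.20. Of the 5 neutrophil markers, 4 were listed, and they summed to 0.144 and 6.19 FPKM. Nearly all of that was Csf3r with HBS (0.141 FPKM) and S100a9 with PC-NVs (5.96 FPKM), while Elane and Mpo were at or near 0. The 8 pericyte markers summed to 77.7 and 96.7 FPKM, with 3 higher and 1 lower by more than 1.5-fold among 7 above the filter. The 3 higher were Rgs5 (1.69 and 7.23 FPKM, about 16 and 61 fragments), Ndufa4l2 (3.83 and 17.3) and Kcnj8 (7.98 and 20.4). The lower one was Cspg4 (20.4 and 12.2), and Pdgfrb, the most abundant, had 38.4 and 33.7 FPKM. Whether RNA carried in by the PC-NVs is part of any difference was not tested. The 4 smooth muscle markers summed to 45.7 and 15.6 FPKM, and the 2 of them above the filter were both more than 1.5-fold lower. The 8 fibroblast markers held 1 higher (Dcn) and 1 lower (Col1a2) by more than 1.5-fold. Beside these marker counts, 5.33% of all genes were higher and 3.57% lower by that much. The 4 epithelial markers were below 1 FPKM in both libraries. The part of other cells in the differences of Sod2, Mt1 and Mt2 was not tested, and a difference that these 2 cultures had apart from treatment cannot be told apart from one made by PC-NVs.

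**Figure D4:**
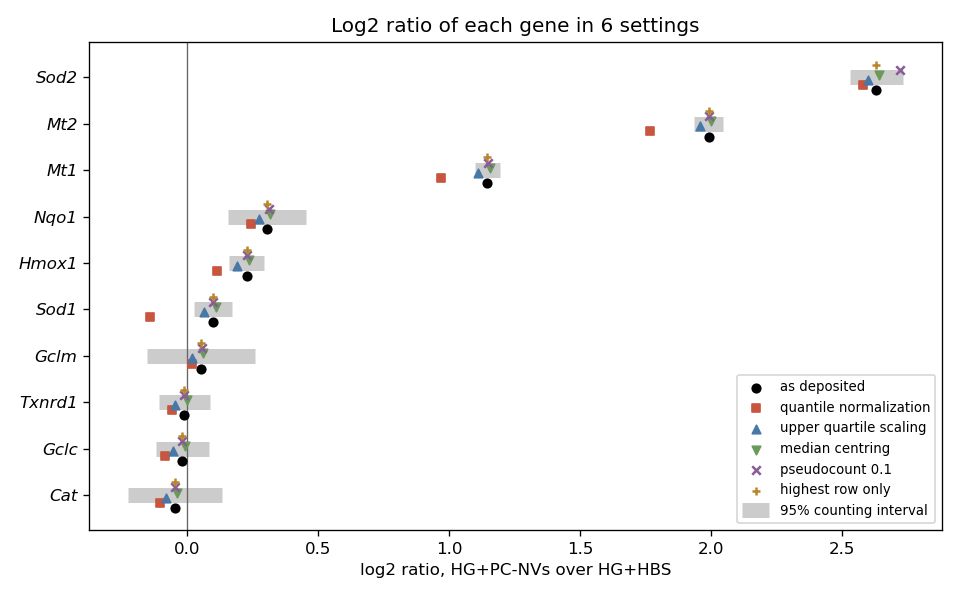
Log2 ratio (HG+PC-NVs over HG+HBS) of each of the 10 genes as deposited and in 5 other settings, with the 95% interval for counting error as a grey bar. Sod2, Mt2 and Mt1 lie at the right in all 6 settings, and the quantile-normalized values of Mt2, Mt1, Hmox1 and Sod1 fall to the left of their bars.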

How the data were processed

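RNA of 2 MCEC cultures was sequenced as 1 library per condition. The authors trimmed the reads, mapped them to mm10 with TopHat, computed FPKM by Cufflinks and then applied what the methods call quantile normalization in edgeR. Tool versions and the annotation are not given in the sources used here. Each deposited file gives log2 of the normalized FPKM plus 1 for 33299 rows. That the scale is log2 was read from the range of the values. The 2 deposited columns do not share 1 distribution, since their FPKM summed to 521666 with HBS and 580717 with PC-NVs. They are therefore not quantile normalized to each other as deposited.

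Here, 2^value - 1 was summed over the rows of each of the 23183 symbols, and ratios were taken as log2 with a pseudocount of 1 FPKM, without further normalization. Genes whose log2 values averaged 1 or more were kept (11785). A fold of 1.5 is a rule of size and not a test. No p-value was computed. The members and lists were chosen with earlier results of these data known. The genes named were the 10 members, list genes past 1.5-fold, and a few of the most abundant or defining genes of each list, some of the latter chosen after their values were seen.

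What 1 fragment is worth was taken as the most frequent low value of FPKM times transcript length over 2192 genes with a single annotated transcript above 1500 nt. Fragments per gene used the shortest basic protein-coding transcript. From these came 95% Wilson intervals, approximate because the values had been normalized. Coordinates are from GENCODE M21 (GRCm38), which holds 95.6% of the symbols, and promoters from RefSeq (GRCm38.p6). The calculations were tested on simulated data. The simulated fold changes held no noise, so this checks the code only and not how calls hold between cultures. Python 3.11.15, numpy 2.4.6, pandas 2.3.3, Biopython 1.88 and matplotlib 3.10.9 were used.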

Additional observations from a re-analysis of the deposited data

How the results depend on the processing

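Sod2, Mt2 and Mt1 were more than 1.5-fold higher as deposited, after quantile normalization, upper-quartile scaling or median centring, with a pseudocount of 0.1 and with the highest row of a symbol. Over these settings the log2 ratio ran from 2.58 to 2.72 for Sod2, 1.77 to 2.00 for Mt2 and 0.97 to 1.16 for Mt1, and the other 7 genes stayed within 1.5-fold. Of 50 values of single genes in other settings, 46 stayed within their counting interval. The other 4, all after quantile normalization, were 0.11 for Hmox1, -0.14 for Sod1, 0.97 for Mt1 and 1.77 for Mt2. The number of the 10 genes past the fold was 3, and 1 with a fold above 4. Over all genes, 628 were higher and 421 lower. There were 374 and 199 with an average log2 value of 3 or more, 281 and 94 with a fold above 2, and 75 and 7 with a fold above 4, where fewer genes can pass by construction. With a pseudocount of 0.1, 683 were lower. List medians moved by over 0.1 in 4 cases. After quantile normalization they were 0.0253 for thioredoxin and peroxiredoxin genes and -0.0845 for the partners of superoxide dismutase. With an average log2 value of 3 or more they were 0.0393 for heme, iron and quinone handling and -0.27 for the sources of superoxide and hydrogen peroxide. A stricter filter leaves the ratio of each gene as it was, so these last medians moved only because genes left the lists. The cause of the shifts after quantile normalization was not tested. No paired analysis was possible because no condition has replicates, and for that reason none could be left out. Depth limits Mt3 and genes of lower level.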

Other observations

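Genes that produce superoxide or hydrogen peroxide were the remaining list. Of its 15 genes, 9 passed the filter, 2 were more than 1.5-fold higher and 0 lower, beside 5.33% and 3.57% of all genes. The median log2 ratio was 0.11, and -0.27 over the genes with an average log2 value of 3 or more. Those genes were only Cyba, Xdh and Maoa, with log2 ratios of 0.11, -0.37 and -0.27. Cyba, the membrane subunit shared by NADPH oxidases, had 248 FPKM with HBS and 267 FPKM with PC-NVs, and Xdh, xanthine dehydrogenase, had 108 and 83.1 FPKM. The higher ones were Ncf4, a cytosolic oxidase subunit of phagocytes, with 1.14 and 2.35 FPKM from about 22 and 40 fragments, and Maob, monoamine oxidase B, with 2.68 and 4.68 FPKM. Nox4, an NADPH oxidase, had 2.20 and 2.19 FPKM.

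Downstream of Sod2, the genes Gpr31b and Unc93a were below the filter on low values. Gpr31b had 0.0901 FPKM with HBS and 0.525 FPKM with PC-NVs, and Unc93a had 0.112 and 0.847 FPKM. These 2 genes were singled out after their values were seen.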
